A study of Sus scrofa with 4 samples.

Results

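The genes described here build the contacts between cells: claudins and their scaffolds at tight junctions, connexins at gap junctions, cadherins and catenins at adherens junctions, and desmosomal proteins. They were picked by a pattern of gene symbols in the RefSeq annotation of the pig genome Sscrofa11.1. The pattern itself uses no measured value, but it was written with earlier results of these data known. The rule found 93 genes among 16303 named coding genes. Of these, 34 were placed with tight junctions (22 claudins and 12 others), 20 with gap junctions, 27 with adherens junctions (22 cadherins and 5 catenins) and 12 with desmosomes. The mark mapped was lactylation of histone H4 at lysine 12 (H4K12la), an acyl mark that cells make from lactate. Chromatin came from the liver of female sows in late gestation, labelled as hepatocytes. The groups were a low (normal) bile acid group and a high bile acid group, each with 1 immunoprecipitated and 1 input library. Breed, age, number of animals and any pooling are not given in the sources used here, and no genotype or agent is named. Without replicates there was no test between the groups, and every difference described below is a difference between 2 peak lists. In bulk chromatin, fewer marked cells and less mark per cell cannot be told apart.

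In the liver, tight junctions seal the bile canaliculus between neighbouring hepatocytes, so that bile does not leak back into the blood. Claudins and occludin span the membrane there, and scaffold proteins such as TJP1 and cingulin tie them to the cytoskeleton. Cadherins hold neighbouring cells together and bind catenins inside the cell, and desmosomes anchor keratin filaments. Connexins form gap junctions, channels that pass small molecules between hepatocytes. These contacts are of interest in cholestasis, the failure of bile flow that the title of the series names.

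The high list held 28283 peaks and the low list 5735, 4.93 times fewer, which touches every count below. Peaks were of like strength, with a median fold enrichment at the summit of 2.90 in the high and 2.98 in the low list. The median number of fragments at the summit, before any scaling, was 9 and 10. The authors' q was under 0.05 for 608 high-list and 13 low-list peaks. Fold, p and q are the authors' values for each peak against its own input, and all intervals cover counting error only. The labelled cell type could not be checked by its markers, since a peak is not expression. Of 10 hepatocyte markers, 7 had a high-list peak within 10 kb and 1 (HNF4A) a low-list peak, against 62.8% and 22.0% of all named coding genes, while ALB and APOA1 had none in either list. Within 10 kb the high list marked 6 of 6 endothelial, 1 of 5 cholangiocyte, 2 of 5 Kupffer or myeloid and 2 of 5 stellate cell markers, and the low list 1, 1, 2 and 2. The endothelial markers include the members CDH5 and CLDN5.

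The first question was how many junction genes carried a peak, and where. At gene ends, taken as 1 kb on either side of either end of the annotated gene, 16 of the 93 genes had a high-list peak (17.2%, 95% Clopper-Pearson interval 10.2 to 26.4%). Over all named coding genes the share was 18.4%. In the low list only CDH4, which encodes R-cadherin, had such a peak (1.08%, 0.0272 to 5.85%), against 3.59% of all genes. In the gene body, 44 junction genes had a high-list peak (47.3%, 36.9 to 57.9%; all genes 45.4%) and 16 a low-list peak (17.2%, 10.2 to 26.4%; all genes 15.1%). Within 10 kb of the gene the counts were 61 (65.6%, 55.0 to 75.1%; all genes 62.8%) and 18 (19.4%, 11.9 to 28.9%; all genes 22.0%). Each of these 6 intervals held the share of all genes. By share of genes, no departure of the 93 genes together from other genes was seen in either list, though wide intervals do not show equality. Per Mb of gene body the junction genes held fewer peaks. They had 10.9 in the high list (95% Poisson interval 9.22 to 12.7), against 14.8 in all genes. In the low list they had 1.68 (1.08 to 2.50), against 2.92. Among genes of 300 kb or less these values were 16.3 (12.5 to 20.8), against 17.7, and 2.33 (1.06 to 4.41), against 3.45. With the high list shortened to its 5735 peaks of lowest p, its counts were 6 genes at the end (6.45%, against 5.19% of all genes), 19 in the body (20.4%, against 16.1%) and 24 within 10 kb (25.8%, against 24.1%).

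**Figure D1:**
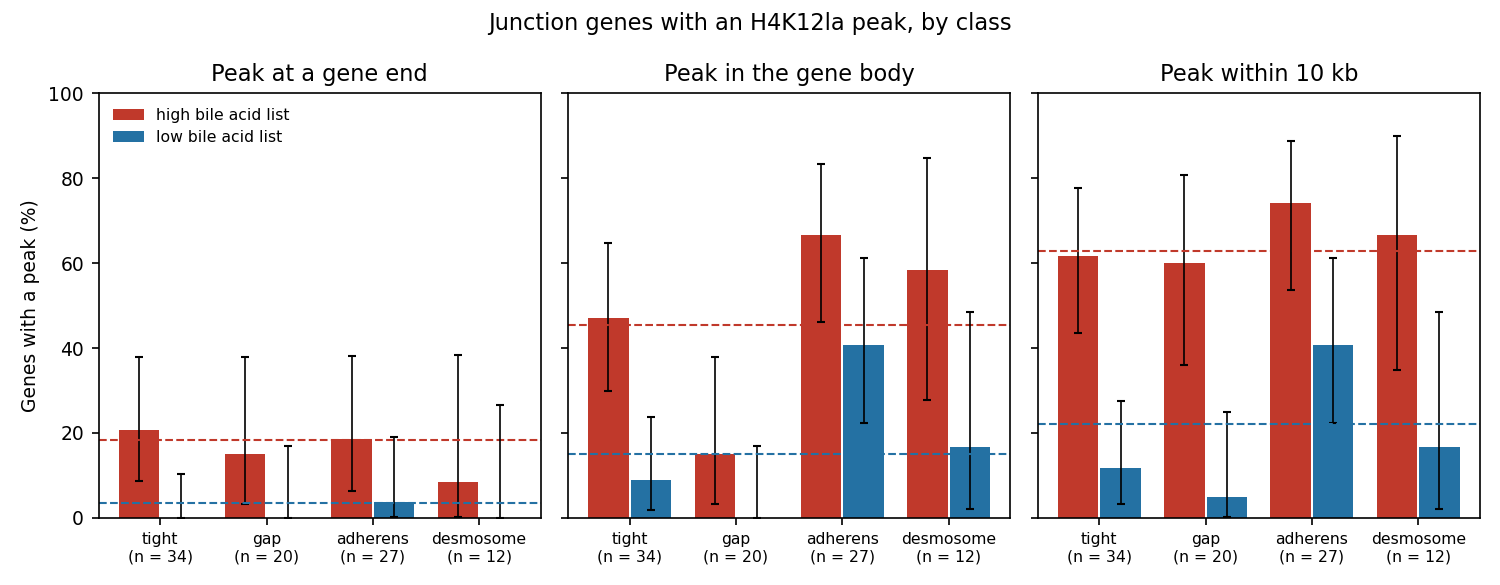
Percent of junction genes with an H4K12la peak (vertical axis) by junction class, for gene ends, gene bodies and the gene with 10 kb on each side. Red bars are the high and blue bars the low bile acid list, lines on the bars are 95% Clopper-Pearson intervals, and dashed lines are the shares of all 16303 named coding genes. At gene ends every interval of the high list spans its dashed line, while in gene bodies the adherens class reaches 66.7% and 40.7% and the gap class 15.0% and 0%.

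At gene ends the high-list intervals of the 4 classes overlapped widely, and each held the 18.4% of all genes. In the high list 7 of 34 tight junction genes had a peak (20.6%, 8.70 to 37.9%), 3 of 20 gap junction genes (15.0%, 3.21 to 37.9%), 5 of 27 adherens junction genes (18.5%, 6.30 to 38.1%) and 1 of 12 desmosome genes (8.33%, 0.211 to 38.5%). In the gene body they spread apart. A high-list peak lay in 16 tight junction genes (47.1%, 29.8 to 64.9%), 3 gap junction genes (15.0%, 3.21 to 37.9%), 18 adherens junction genes (66.7%, 46.0 to 83.5%) and 7 desmosome genes (58.3%, 27.7 to 84.8%). The adherens interval lay above the 45.4% of all genes, the gap interval lay below it, and the others held it. The low list followed the same order for its extremes, with 11 adherens junction genes (40.7%, 22.4 to 61.2%) and 0 of 20 gap junction genes (0 to 16.8%). There the adherens interval lay above the 15.1% of all genes, and the gap interval held it. Gene length went with the order of the classes. The median gene was 6.65 kb long in the gap class, 15.0 kb in the tight class, 42.6 kb in the desmosome class and 151 kb in the adherens class, against 25.6 kb over all genes. Per Mb of gene body, adherens junction genes held 8.44 high-list peaks (95% Poisson interval 6.78 to 10.4), below the 14.8 of all named coding genes. The other classes were nominally above it, with 17.4 in tight junction genes (12.8 to 23.1), 17.98 in gap junction genes (3.71 to 52.5) and 20.9 in desmosome genes (11.7 to 34.4), intervals that hold the value of all genes. Among genes of 300 kb or less, tight junction genes had 27.7 (18.6 to 39.9) and adherens junction genes 8.25 (4.71 to 13.4), against 17.7. The median tight junction gene of that set was 13.8 kb long, against 23.8 kb. In the low list all 4 classes lay below the 2.92 of all genes. Adherens junction genes had 1.59 (0.928 to 2.55), tight 1.85 (0.599 to 4.31), desmosome 2.78 (0.337 to 10.0) and gap 0 (0 to 22.1). In the high list the claudins alone had 42.6 (23.8 to 70.3). Claudins up to 10 kb had 29.7 (0.753 to 166), against 47.6 in all genes of that length. Those of 10 to 50 kb had 33.0 (8.99 to 84.5), against 24.7. CLDN14, the 1 claudin of 50 to 100 kb, had 87.6 (35.2 to 180), against 16.4. CLDN10, the 1 claudin of 100 to 300 kb, had 25.6 (5.27 to 74.7), against 12.9. Counts by gene length are given further below.

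Tight junction genes had 7 members with a gene-end peak, all in the high list. Of the 22 claudins, the strand-forming proteins of the tight junction, 4 were among them. CLDN3, a barrier-forming claudin, is a gene of only 1030 bp at chromosome 3, 11019073 to 11020102, and its peak at 11019196 to 11019938 covered most of it, with a fold of 2.89 (q 0.301). That peak rested on 10 fragments at the summit (95% Poisson interval 4.80 to 18.4) over 2.80 expected, and the low list had no peak within 10 kb of the gene. Its neighbour CLDN4, at 11039711 to 11053930, had peaks at 11052854 to 11053223 (fold 2.63, q 0.402) and at 11054293 to 11054899 (fold 2.39, q 0.33). The second lay outside CLDN4 and touched METTL27, a neighbouring gene. CLDN1, a barrier claudin whose loss in humans causes a syndrome with sclerosing cholangitis, had a peak at its upper end, chromosome 13, 127730288 to 127730690, with a fold of 2.34 (q 0.548) on 8 fragments (3.45 to 15.8). CLDN23 had one of fold 2.29 (q 0.5), placed 348 bp beyond its upper end. The 5 gene-end peaks of claudins had a median fold of 2.39, against 2.94 for high-list gene-end peaks of all named coding genes.

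The other 3 tight junction members with a gene-end peak were scaffolds and polarity genes. TJP3, which encodes the scaffold ZO-3, had a peak at chromosome 2, 74970380 to 74971026, with a fold of 3.01 (q 0.294) on 9 fragments (4.12 to 17.1). A stronger peak, of fold 4.31 (q 0.031) on 12 fragments, lay 5958 bp beyond the gene. That peak sat at an end of the neighbour PIP5K1C, so it cannot be assigned to TJP3. CGN, which encodes cingulin, shared its gene-end peak with an end of TUFT1, at chromosome 4, 97705333 to 97705638, with a fold of 2.48 (q 0.5). PARD3B, a relative of the polarity scaffold PARD3, had a peak 77 bp outside its lower end at chromosome 15, 107882086 to 107882380, with a fold of 3.69 (q 0.139) on 10 fragments (4.80 to 18.4). None of the gene-end peaks of tight junction genes had a q under 0.05.

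Several central tight junction genes of the liver had little or nothing. OCLN, which encodes occludin, had no peak in the gene, and its nearest high-list peak, of fold 2.96 (q 0.326), lay 5856 bp outside it and at an end of GTF2H2. TJP1, which encodes ZO-1, had a single high-list peak deep in its 265 kb, of fold 2.68 (q 0.5). Neither list placed a peak within 10 kb of F11R, which encodes the junctional adhesion molecule JAM-A, or of CLDN2, a pore-forming claudin. CLDN5, a claudin of endothelial cells, had a high-list peak of fold 2.62 (q 0.471) 1341 bp outside the gene. Of the 22 claudins, 10 had a high-list peak within 10 kb (45.5%, 24.4 to 67.8%), against 62.8% of all genes and 51.0% of genes up to 10 kb, the length of 13 of the claudins. CLDN25, with no high-list peak there, had a low-list peak of fold 3.34 (q 1) 1111 bp outside the gene. CLDN2 and GJB1 are the members on chromosome X, where the high list held 53 peaks and the low list 4 in all (0.421 and 0.0318 per Mb).

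Inside their bodies, tight junction genes held 47 high-list and 5 low-list peaks. CLDN14, a claudin best known from the inner ear, held 7 of the 15 high-list peaks found in claudin bodies, over 79.9 kb. Their folds ranged from 2.47 to 3.64, the strongest at chromosome 13, 200162056 to 200162621 (q 0.109). CLDN10, which forms ion pores, had 3 body peaks of fold 2.08, 3.77 (q 0.0845) and 3.69. CLDN7 was the only claudin with a peak in the gene body in both lists. Its high-list peak at chromosome 12, 52614251 to 52614551 (fold 2.84, q 0.33) and its low-list peak at 52625257 to 52625613 (fold 3.39, q 1) were 10.7 kb apart. PARD6G, a polarity adaptor, held 4 high-list peaks of fold 2.08 to 3.02 and 1 low-list peak of fold 2.70 (q 1).

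**Figure D2:**
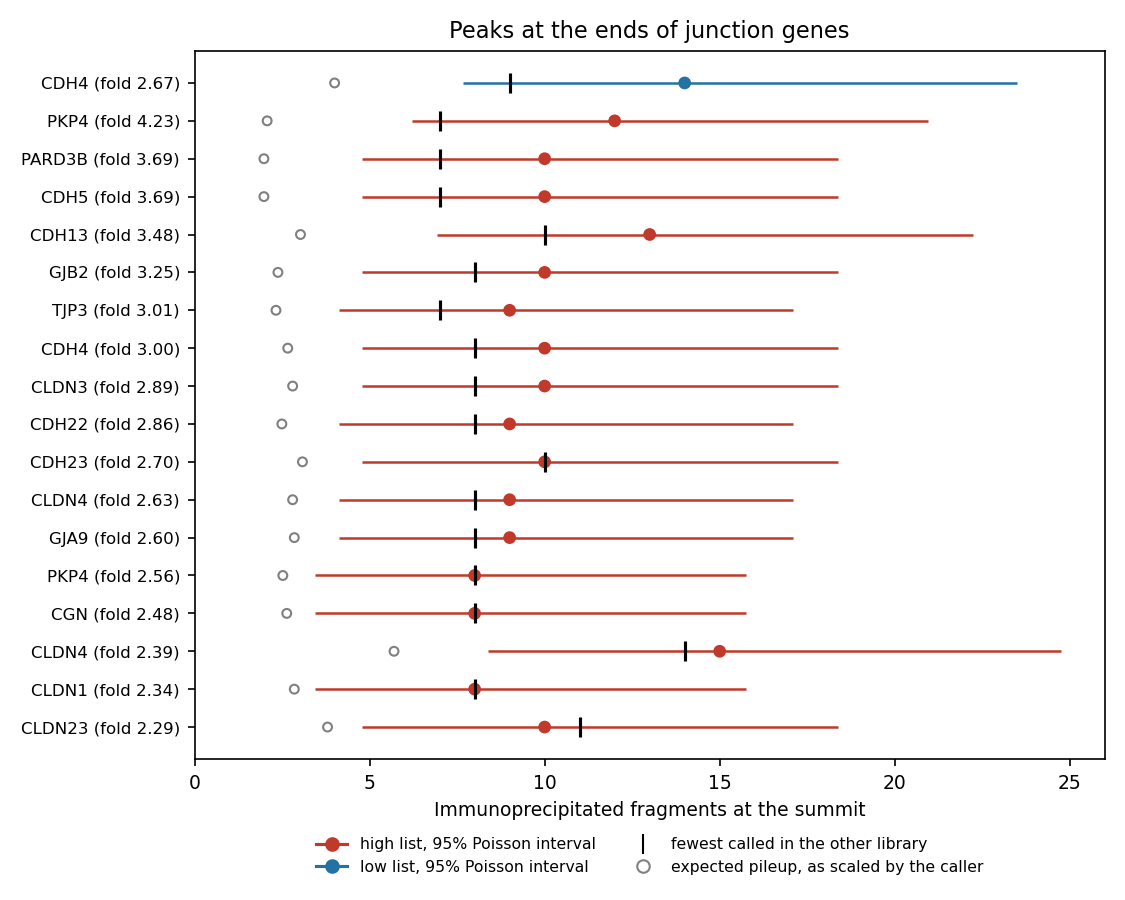
Immunoprecipitated fragments at the summit (horizontal axis) of 17 high-list peaks (red) and the 1 low-list peak (blue) at ends of the junction genes reported here by name, with 95% Poisson intervals. Black ticks give the smallest number of fragments that would have passed p of 0.01 in the other library at an equal expected pileup, and open grey circles give that expected pileup; every tick lies inside its interval.

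Gap junction genes had 3 of 20 members with a gene-end peak, again only in the high list. GJB2, which encodes a connexin of hepatocytes, had a peak inside its 7163 bp, at chromosome 11, 774603 to 774958, with a fold of 3.25 (q 0.222) on 10 fragments (4.80 to 18.4). GJA9 had one at its lower end, of fold 2.60 (q 0.429), that also touched an end of MYCBP. GJB1, which encodes the main connexin of hepatocytes, and GJA1, a widespread connexin gene, lacked peaks in both lists, also with 10 kb on each side.

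With 10 kb on each side, 12 of the 20 connexin genes had a high-list peak (60.0%, 36.1 to 80.9%) and 1 a low-list peak (5%, 0.127 to 24.9%), against 62.8% and 22.0% of all genes. Only 3 of the 20 high-list peaks involved lay in a connexin gene; GJA5, a connexin of arteries and the atrium, held the third, of fold 2.60 (q 0.5). The low-list member was GJA3, a lens connexin, whose peak of fold 2.68 (q 1) lay 1846 bp outside the gene and 2315 bp from the nearest high-list peak.

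Adherens junction genes had 5 members with a gene-end peak, all cadherins. CDH5, which encodes the cadherin of endothelial cells, had a high-list peak 208 bp outside its upper end, at chromosome 6, 27142353 to 27142674, with a fold of 3.69 (q 0.139) on 10 fragments (4.80 to 18.4). A second high-list peak of fold 3.36 (q 0.232) lay in the gene, and the low list had neither. CDH13, which encodes T-cadherin, a cadherin anchored by a lipid, had a peak at its upper end, 5831934 to 5832228 on chromosome 6, with a fold of 3.48 (q 0.0917) on 13 fragments (6.92 to 22.2). CDH22 had one of fold 2.86 (q 0.33). CDH23, a cadherin of the hair cells of the ear, had one of fold 2.70 (q 0.33) that lay 610 bp outside the gene, within PSAP.

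CDH4 was the 1 junction gene marked at an end in both lists, as were 0.883% of all genes. Its peaks lay at opposite ends, about the full 495 kb apart. The high-list peak was at the lower end, chromosome 17, 60958911 to 60959274, with a fold of 3.005 (q 0.242) on 10 fragments (4.80 to 18.4). The low-list peak was 459 bp outside the upper end, at 61454613 to 61455292, with a fold of 2.67 (q 1) on 14 fragments (7.65 to 23.5). The other 15 members with a gene-end peak had it in the high list only (16.1%), against 17.6% of all genes, and none had it in the low list only, against 2.71%.

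CDH1 and CDH2, cadherins of epithelia and hepatocytes, were marked only inside the gene. CDH1, which encodes E-cadherin, had high-list peaks of fold 3.02 (q 0.33) and 2.47 (q 0.531) in its body and none in the low list. CDH2, which encodes N-cadherin, also a cadherin of hepatocytes, had 3 high-list peaks of fold 3.12, 2.84 and 2.50 and 1 low-list peak of fold 3.56 (q 1), at 112490612 to 112490958 on chromosome 6. That low-list peak lay 21.2 kb from the nearest high-list peak. The catenins bind the cadherin tails. CTNND1, which encodes p120-catenin, had 2 high-list body peaks, of fold 2.84 and 2.63. CTNNA1, the alpha-catenin gene of epithelia, had a high-list peak of fold 2.71 (q 0.301) 5873 bp outside the gene and a low-list peak of fold 2.68 (q 1) inside it, at an end of LRRTM2, a gene nested there. Cadherins with a body peak in the low list and none in the high list were CDH6, CDH11 and CDH20, with folds of 3.04, 3.23 and 3.27 (q 1 for each).

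The 2 strongest high-list peaks of all junction genes lay in cadherin genes. The peak in CDH22, a cadherin of the brain, at chromosome 17, 48416684 to 48417043, had a fold of 4.47 (q 0.0164) on 13 fragments over 2.13 expected and ranked 125 by fold among the 28283 peaks of the list. A peak in CDH12, at chromosome 16, 10821945 to 10822390, had a fold of 4.32 (q 0.0237) on 13 fragments. CDH23 held one of fold 4.05 (q 0.0478) on 12 fragments. With the peak beside TJP3 and the gene-end peak of PKP4 these were the 5 of 194 distinct high-list peaks within 10 kb of a junction gene with q under 0.05. Over all named coding genes, 444 of 19004 distinct high-list peaks within 10 kb had such a q.

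**Figure D3:**
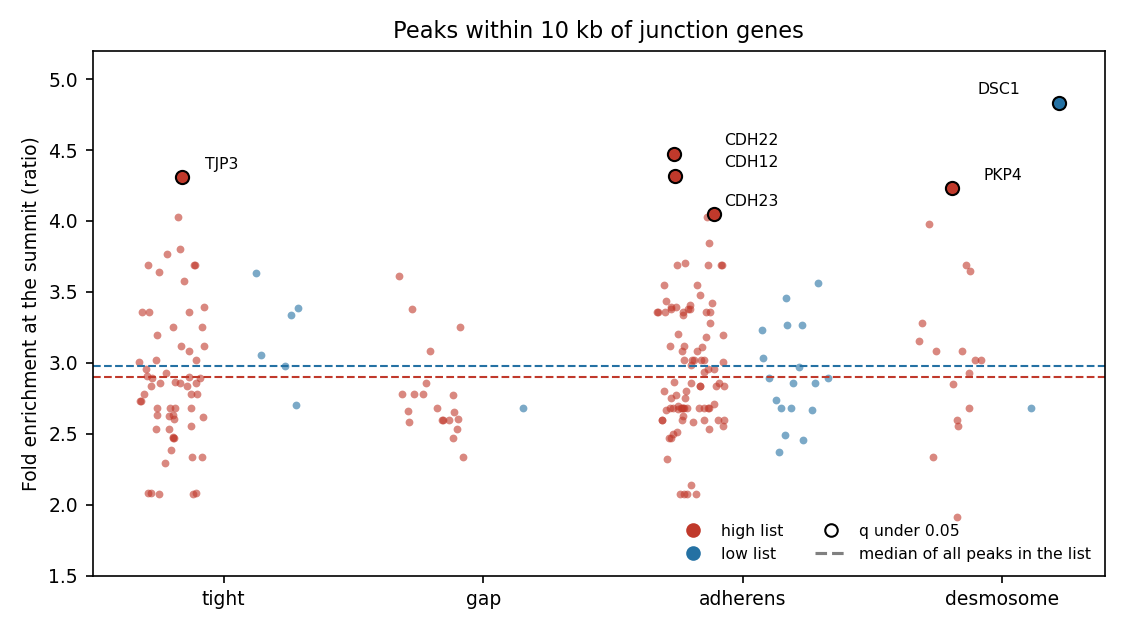
Fold enrichment at the summit (vertical axis, a ratio) of each distinct peak within 10 kb of a junction gene, by junction class, with high-list peaks in red and low-list peaks in blue. Dashed lines are the medians of all peaks of each list (2.90 high, 2.98 low), and black rims mark q under 0.05, reached by 5 high-list peaks and by the DSC1 peak of the low list.

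Desmosome genes had 1 of 12 members with a gene-end peak. PKP4, a relative of p120-catenin found at desmosomes and adherens junctions, had 2 high-list peaks at its lower end. The stronger, at chromosome 15, 65431393 to 65431860, had a fold of 4.23 (q 0.0316) on 12 fragments (6.20 to 21.0) over 2.07 expected, and it also touched an end of CCDC148. Of the 18 high-list gene-end peaks of junction genes, it was the single one with q under 0.05. Over all named coding genes, 120 of 2970 high-list gene-end peaks had such a q. The low list had a peak of fold 2.68 (q 1) in the middle of PKP4, 42.6 kb from the nearest high-list peak.

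DSC1, which encodes desmocollin 1, a desmosomal cadherin of the epidermis, held the strongest low-list peak of any junction gene. It lay inside the gene at chromosome 6, 115045290 to 115045775, with a fold of 4.83 (q 0.0229) on 15 fragments (8.40 to 24.7). The expected pileup was 1.94 on the scale of the caller, where each low-library fragment counts 0.881. The peak ranked 3 by fold among the 5735 low-list peaks. In the high library 6 fragments at an equal expected pileup would have passed p of 0.01, a number below that interval. The nearest high-list peak was 34.4 kb away and 4070 bp beyond DSC1, and had a fold of 3.65 (q 0.139). The DSC1 peak was the only one of either list within 10 kb of a junction gene whose interval lay at or above the other library's limit. For the 194 high-list peaks there was none. The DSC1 peak was the strongest of 27 low-list peaks already selected by being called, and library depth was not known. The share of all low-list peaks that pass this limit was not computed. The DSC1 peak therefore does not show a difference in level between the groups.

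Of the remaining desmosome genes, DSC3, which encodes desmocollin 3, had the strongest body peak, of fold 3.69 (q 0.139) in the high list. DSC2, the desmocollin of simple epithelia, had high-list body peaks of fold 3.02 (q 0.33) and 1.91 (q 0.711), the second the lowest fold of all high-list peaks within 10 kb of a junction gene. DSP, which encodes desmoplakin, the link to keratin, had a high-list peak of fold 3.09 (q 0.258) near its upper end. PKP1, a plakophilin of stratified epithelia, had 4 body peaks of fold 2.34 to 3.28, all in the high list. No peak of either list came within 10 kb of DSG2, the desmoglein of simple epithelia, or PKP2, the plakophilin of heart and simple epithelia. The 7 desmocollin and desmoglein genes lie side by side over 0.537 Mb of chromosome 6. That stretch held 7 high-list peaks (13.0 per Mb, 95% Poisson interval 5.24 to 26.9), against 16.4 per Mb over the chromosome, and 1 low-list peak, the one in DSC1.

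Gene length was compared next, because a longer gene has more room for a peak. Of the 93 genes, 30 were up to 10 kb long and 11 were over 300 kb. Among genes up to 10 kb, 4 of 30 junction genes had a high-list body peak (13.3%), against 21.4% of all 4164 genes of that length. Between 10 and 50 kb it was 15 of 28 (53.6%, against 42.1%), between 50 and 100 kb 6 of 11 (54.5%, against 57.7%) and between 100 and 300 kb 8 of 13 (61.5%, against 74.7%). All 11 junction genes over 300 kb had one, as did 91.0% of the 677 genes of that length. In the low list 7 of these 11 had a body peak (63.6%, against 58.6%), as did 6 of 13 between 100 and 300 kb (46.2%, against 35.6%). Fewer shorter junction genes had one: 1 of 11 between 50 and 100 kb (9.09%, against 18.9%), 2 of 28 between 10 and 50 kb (7.14%, against 10.4%), which were CLDN7 and DSC1, and 0 of 30 up to 10 kb (against 3.41%). At equal length the shares of the junction genes thus lay on both sides of those of other genes. The length classes were added after the data were seen.

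**Figure D4:**
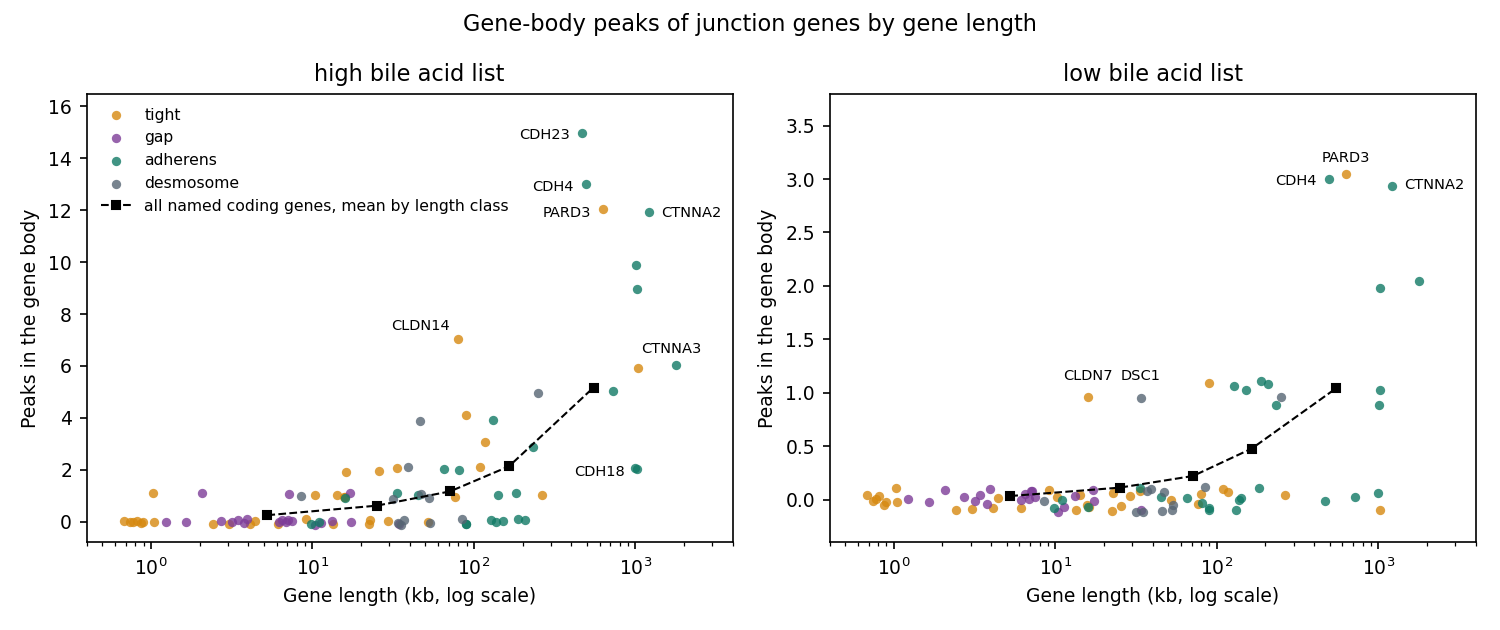
Number of peaks in the gene body (vertical axis) against gene length (horizontal axis, log scale) for the 93 junction genes, coloured by class, in the high (left) and low list (right). Points are moved slightly apart vertically, and squares on the dashed line are the mean over all named coding genes in each of 5 length classes; CDH23 with 15 peaks, CDH4 with 13 and CLDN14 with 7 lie above it in the high list, while CDH18 and CDH12 with 2 each lie below.

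The 11 genes over 300 kb held 92 of the 155 high-list body peaks (59.4%) and 15 of the 24 low-list body peaks (62.5%). Together they carried 8.85 high-list peaks per Mb (7.14 to 10.9), against 9.40 in all genes of that length, and 1.44 low-list peaks per Mb (0.808 to 2.38), against 1.898. Between the 11 the density differed widely. CDH23 had 32.1 high-list peaks per Mb, which ranked 18 among the 677 genes, CDH4 had 26.3 (rank 38) and PARD3, the polarity scaffold, 18.97 (rank 97). CTNNA3, an alpha-catenin of heart muscle, had 3.37 (rank 527), and the neuronal cadherins CDH12 and CDH18 had 2.02 and 1.95 (ranks 598 and 601). In the low list CDH4 had 6.06 per Mb (rank 43) and PARD3 4.74 (rank 81), while CDH23, with the highest density of these genes in the high list, had no low-list peak.

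At their ends, 4 of the 11 long genes had a high-list peak (36.4%), against 12.4% of all genes over 300 kb. This small count has no interval, and the length class was added after the data were seen. The CDH23 peak among them lay outside that gene, within PSAP. Inside the genes the spacing varied. CDH23 held 15 body peaks with a median spacing of 11.4 kb, but 184 kb passed without one. Its peaks included 3 that lay within VSIR, a gene nested in it, and 1 at an end of VSIR. CDH4 held 13 with a median spacing of 29.0 kb, and PARD3 held 12 with folds of 2.56 to 4.03. CTNNA2, the alpha-catenin of neurons, held 12 high-list peaks, the strongest of fold 4.03 (q 0.0735) at chromosome 3, 63330103 to 63330481, and 3 low-list peaks. CTNND2, the delta-catenin of neurons, held 10 and 1, with 8 of the 10 below the midpoint of the gene, where PARD3B had 1 of its 6. All 5 high-list peaks of CDH8, another neuronal cadherin, lay in the part of the gene with the lower coordinates. CDH12 and CDH18 belong to a run of 5 cadherin genes on chromosome 16 that ends at CDH6. Its 9.57 Mb held 24 high-list peaks (2.51 per Mb, 1.61 to 3.73), against 10.1 per Mb over the chromosome, and 7 low-list peaks (0.731 per Mb, 0.294 to 1.51, against 2.09). It was 1 of 12 runs of neighbouring junction genes that were examined after the data were seen. The other runs lay on both sides of the value for their chromosome. CLDN3 to CLDN4, over 0.0349 Mb, held 4 high-list peaks (115 per Mb, 31.3 to 294, against 16.2). A run of 4 connexin genes on chromosome 6, over 0.0486 Mb, held 5 (103 per Mb, 33.4 to 240, against 16.4). The intervals of these 2 runs of short genes also held 47.6, the high-list peaks per Mb of gene body in all genes up to 10 kb. CLDN4 is longer than that, and the runs include the space between genes. A run of 4 cadherin genes from CDH8 on held 41 (8.77 per Mb, 6.29 to 11.9, against 16.4). CLDN1 and its neighbouring claudin gene held 1 (8.60 per Mb, 0.218 to 47.9, against 10.0). Another pair of claudin genes on chromosome 3 and another on chromosome 13 held 0.

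**Figure D5:**
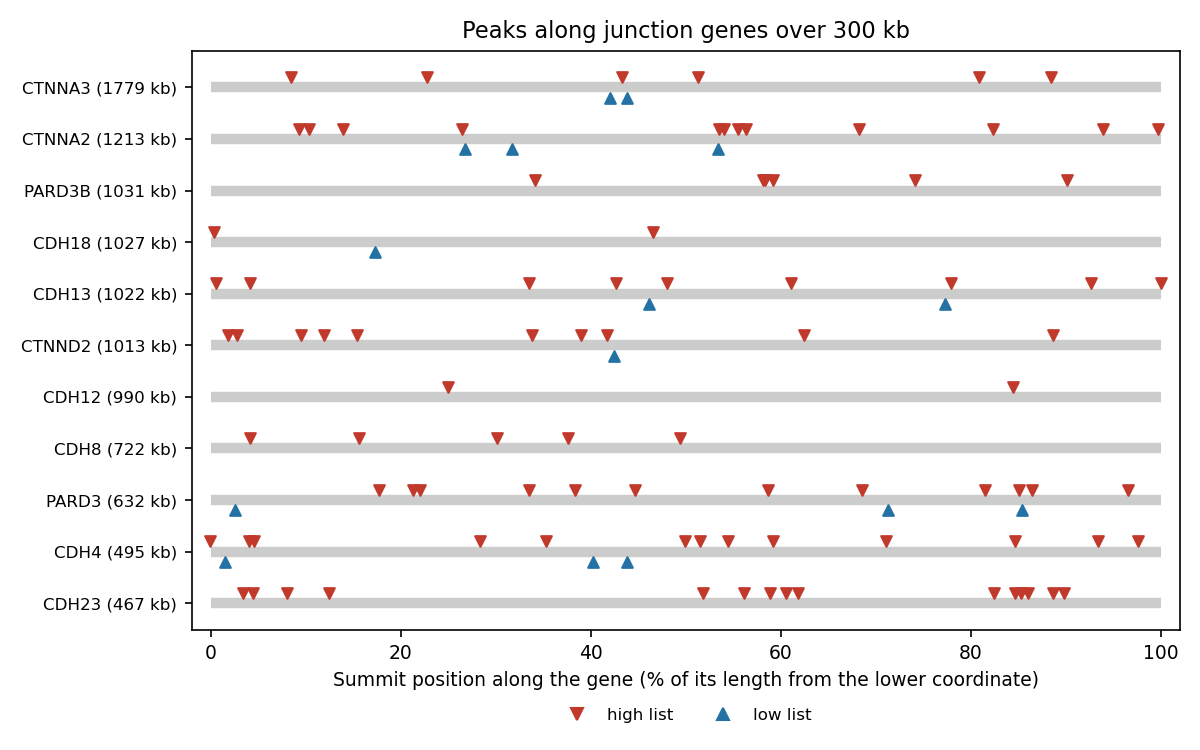
Position of each peak summit along the 11 junction genes over 300 kb (horizontal axis, percent of the gene's length from its lower coordinate), with high-list peaks as red triangles above and low-list peaks as blue triangles below each grey gene bar. High-list peaks run along most genes, CDH12 and CDH18 have 2 each, and no red and blue peak overlaps, though a pair in CTNNA2 nearly touches.

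No peak of the low list within 10 kb of a junction gene overlapped a high-list peak. This was 0 of 27 peaks, while over the whole low list 208 of 5735 did so (3.63%). The closest pair lay in CTNNA2, where a low-list peak at 63852988 to 63853374 (fold 2.89, q 1) and a high-list peak at 63853655 to 63854285 (fold 2.68, q 0.5) were 281 bp apart. A pair in PARD3 was 1601 bp apart. The median distance from a low-list peak to the nearest high-list peak was 21.2 kb at junction genes and 21.0 kb over the whole list. A body peak in both lists was found in 11 of 93 genes (11.8%), against 10.6% of all genes. They were CDH2, CDH4, CDH13, CDH18, CTNNA2, CTNNA3, CTNND2, CLDN7, PARD3, PARD6G and PKP4. A body peak in the high list only was found in 33 (35.5%, against 34.7%) and in the low list only in 5 (5.38%, against 4.50%). Within 10 kb the counts were 14 in both lists (15.1%, against 16.6%), 47 in the high list only (50.5%, against 46.2%) and 4 in the low list only (4.30%, against 5.42%).

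Other genes of the same contacts were counted beside the 93. Of 39 annotated partners, chosen with earlier results known, 10 were marked at an end in the high list (25.6%, 13.0 to 42.1%) and 1 in the low list (2.56%, 0.0649 to 13.5%), against 18.4% and 3.59% of all genes. The high-list genes included PATJ, a polarity scaffold (fold 3.68, q 0.139), PRKCZ, an atypical protein kinase C (3.39, q 0.167), EVPL, which encodes envoplakin (3.28, q 0.211), and LSR, which marks contacts between 3 cells (3.12, q 0.232). The low-list gene was PRKCI, the other atypical protein kinase C (2.89, q 1). JUP, which encodes plakoglobin, had 4 high-list body peaks, the strongest of fold 4.21. CTNNB1, which encodes beta-catenin, had 1 high-list body peak of fold 2.86 and none in the low list. Of the 39 partners, 26 had a high-list body peak (66.7%, 49.8 to 80.9%), against 45.4% of all genes. Within 10 kb it was 31 (79.5%, 63.5 to 90.7%), against 62.8%, and both intervals lay above all genes. In the low list 11 had a body peak (28.2%, 15.0 to 44.9%; all genes 15.1%). Within 10 kb it was 14 (35.9%, 21.2 to 52.8%; all genes 22.0%). The partners were not compared with genes of equal length.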

How the data were processed

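Chromatin from sow liver was immunoprecipitated for H4K12la, and 1 such library and 1 input library stood for each bile acid group. MACS2 2.1.0, Bowtie 1.1.2, Trimmomatic 0.33 and bcl2fastq 2.17 are the tools named, per the submitters' processing notes. Both hg38 and Sscrofa11.1 are named as builds there. The lists used chromosome names 1 to 18 plus both sex chromosomes, and on each numbered one the last high-list peak ended close to the last annotated pig gene, so Sscrofa11.1 was used. The authors deposited 1 narrow peak list per immunoprecipitated library, with a fold enrichment (a ratio over local background) and −log10 p-value and −log10 q-value per peak. Not given in the sources used here: the cutoff of the caller. The largest p was 0.00989 in both lists.

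Gene positions were those of RefSeq for Sscrofa11.1, in a table without strand or exons, so start sites were not told apart from transcript ends, nor exons from introns. Peaks of near-identical claudin or connexin copies depend on how repeated reads were placed, a setting not given in the sources used here. A peak was assigned to a gene with at least 1 bp in the window. Library depth was not in the labels. Fragments at the summit were solved from fold and p, with the low library's pileup scaled by 0.881 and the high one's unscaled; 99.98% of peaks gave whole numbers within 0.002 in −log10 p. The smallest expected pileup was 1.94 in the low and 1.98 in the high library. The fewest fragments called in the other library used the same expected pileup and p of 0.01. Fragments are given unscaled and expected pileups as scaled by the caller, so for low-list peaks the scales differ. Joining and solving were tested on simulated data. Python 3.11.15, numpy 2.4.6, pandas 2.3.3 and scipy 1.17.1 were used.

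Members and gene lists were chosen with earlier results of these data known. Named genes were 21 fixed central members, all members with a gene-end peak, and those of highest fold or most peaks in each list; further members were named after their values were seen to complete small counts. A few genes are counted but not reported here by name. The 12 stretches of neighbouring members examined were chosen from gene positions after the data were seen. No sequence was used here.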

Additional observations from a re-analysis of the deposited data

How the results depend on the processing

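No paired analysis was possible because there was a single immunoprecipitated library per group. In the order gene end, gene body and within 10 kb, with the high list before the low list, the counts of junction genes were 16 and 1, 44 and 16, and 61 and 18. With q under 0.05 they were 1 and 0, 4 and 1, and 5 and 1. With a fold of 4 or more they were 1 and 0, 6 and 1, and 7 and 1. With the high list shortened to the length of the low list, by p, its counts were 6, 19 and 24, against 1, 16 and 18 in the low list; these falls come with fewer peaks. A gene-end window of 3 kb gave 25 and 4. Without genes over 300 kb the low-list counts were 0, 9 and 11. The high-list density then rose from 10.9 to 16.3 peaks per Mb of gene body, and over all named coding genes from 14.8 to 17.7. For the q, fold, 3 kb and length settings no share of all genes was computed, so these counts of genes were not compared with other genes. Shares by length class are given above. For q, peaks can be compared. Within 10 kb of junction genes 5 of 194 high-list and 1 of 27 low-list peaks had a q under 0.05. Over all named coding genes these counts were 444 of 19004 and 8 of 3805. Placing the summit alone, leaving out the polarity genes and asking for 50% of overlap moved no count by more than 1.5 times. The planned count at start sites alone was not run, since no strand was at hand. Depth limits all values: with 8 to 15 fragments at a gene-end summit, a call missing from the low list does not show a lower level.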
